A study of Mus musculus with 6 samples.

Results

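The RNAs described here are the small nucleolar RNAs (snoRNAs) and Gas5, a long non-coding RNA whose introns carry several of them. The members were all probe sets whose platform annotation holds a symbol starting with Snord or Snora, together with those of Gas5, which gave 101 of the 35556 probe sets on the array. Of these, 97 were snoRNA probe sets, covering 69 snoRNA symbols, and 4 were Gas5 probe sets. Snord symbols (42) name C/D box RNAs and Snora symbols (27) name H/ACA box RNAs. Only 56 snoRNA probe sets were listed with a single symbol, 33 C/D box probe sets of 31 genes and 23 H/ACA box probe sets of 20 genes. The other 41 were listed with several symbols and are described separately. All 101 members had a symbol in the RefSeq table of the mouse assembly GRCm38.p6.

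Heart RNA of male mice aged 3 months was hybridised to 6 Affymetrix Mouse Gene 1.0 ST arrays, 3 labelled VAChT KDHOM and 3 labelled WT. VAChT KDHOM mice are homozygous for a knockdown allele of the vesicular acetylcholine transporter (gene Slc18a3), which lowers acetylcholine release throughout the body and not in the heart alone, and WT mice carry the normal gene. The RNA of 2 samples was mixed for every array, so the spread between arrays is a spread between pools and not between mice. The labels give C57BL/6 as the strain of both groups and the heart as the tissue, whereas the methods describe a mixed background partly backcrossed to that strain and ventricular RNA.

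Box C/D snoRNAs guide the methylation of riboses in ribosomal RNA, and box H/ACA snoRNAs guide the conversion of uridine to pseudouridine. Most mammalian snoRNAs are cut out of introns of host genes, many of which encode ribosomal proteins or translation factors, or are non-coding RNAs such as Gas5 whose spliced exons are unstable in growing cells. Transcripts of many such hosts begin with a C followed by a run of pyrimidines, the terminal oligopyrimidine start that ties their translation to cell growth.

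The start regions of a few hosts are shown because they carry this feature and because their snoRNAs differed in how far they separated the groups. Sequences are from RefSeq (GRCm38.p6), 5′ to 3′, with capitals for a C followed by at least 4 pyrimidines that begins within 5 bases either side of an annotated start, on the strand of the gene. The Gas5 sequence is its promoter at chr1:161034916-161035215 (plus strand), 250 bases before and 50 after the second of its annotated starts. The other lines are windows of 25 bases around the start of Rpl13a (chr7:45128731-45128755, minus strand), Rack1 (chr11:48800350-48800374, plus strand), 2410006H16Rik (chr11:62602867-62602891, plus strand) and Rplp2 (chr7:141447641-141447665, plus strand).
Gas5: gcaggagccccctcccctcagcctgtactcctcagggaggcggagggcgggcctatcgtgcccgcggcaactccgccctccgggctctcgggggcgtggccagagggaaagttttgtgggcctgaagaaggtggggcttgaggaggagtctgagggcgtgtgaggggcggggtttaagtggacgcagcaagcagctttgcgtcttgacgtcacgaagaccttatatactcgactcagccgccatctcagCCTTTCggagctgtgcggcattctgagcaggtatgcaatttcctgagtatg
Rpl13a: cctgcgacaagaCCTCCTCCTTTCC
Rack1: gccgctCTTTCTTTTTCTCCacagg
2410006H16Rik: cgccgtCTTTCTCTgcggccatcat
Rplp2: cagcgtCTTCCTTTCgccgccggac
Among the 40 host genes of the members with 1 symbol, 30 had a promoter sequence and 14 of these (46.7%) held such a run at a start, against 21.2% of all 27025 genes with a promoter sequence. A match describes these letters only.

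The H/ACA box probe set with the widest separation is listed with Mir1291 and Snora34. The sequence of Snora34 could be shown in part, because the hairpin of the microRNA Mir1291 overlaps it. The hairpin (chr15:98519762-98519878, minus strand) is printed with capitals for the 73 bases that lie inside the 118-base Snora34 gene. The mature microRNA is printed with its seed, bases 2 to 8, in capitals. Mir664 (chr1:185242975-185243043, plus strand) overlaps Snora36b in the same way by 64 bases and shows the ACA triplet that gives the class its name, 3 bases before the snoRNA's end, where the capitals end.
Mir1291 hairpin: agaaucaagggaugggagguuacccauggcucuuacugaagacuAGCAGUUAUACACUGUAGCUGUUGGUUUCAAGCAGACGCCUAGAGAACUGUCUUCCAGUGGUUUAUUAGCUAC
mmu-miR-1291: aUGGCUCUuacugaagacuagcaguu
Mir664 hairpin: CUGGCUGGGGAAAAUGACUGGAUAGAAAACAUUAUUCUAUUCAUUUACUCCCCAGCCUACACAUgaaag

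Before the results, some arrays went against their labels. Ogdhl, an oxoglutarate dehydrogenase-like gene, read 7.06, 10.17 and 7.09 (log2) on the arrays labelled VAChT KDHOM 1, 2 and 3, and 9.60, 7.21 and 10.33 on those labelled WT 1, 2 and 3, so both arrays numbered 2 stood with the other label. Slc18a3, the targeted gene, read 7.24, 6.77 and 7.58 on the VAChT KDHOM arrays and 7.31, 7.42 and 7.11 on the WT arrays, and its groups overlapped. VAChT KDHOM 3 and WT 1 lay at opposite ends of the first principal component (33.4 and -43.9, with 43.4% of the variance). On VAChT KDHOM 1 the cardiomyocyte markers averaged 13.20, against 13.94 to 13.95 on the other VAChT KDHOM arrays and 13.87 to 13.89 on the WT arrays, at the bright end of the scale. Cardiomyocyte markers were thus high on every array. Whether the labels of the arrays numbered 2 were exchanged was not tested, so they are in doubt, and every difference given here is one between the groups as labelled. Results are given with all 6 arrays, and some of them also without both arrays numbered 2. Only the values without those arrays do not depend on their labels. The counts of groups that did not overlap and the correlations with length are among those given only as labelled.

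Most C/D box RNAs read higher on the VAChT KDHOM arrays, each by a small amount. Their 33 probe sets had a median log2 difference (VAChT KDHOM minus WT) of 0.24, ranging from -0.26 to 0.68, with 25 above 0 and 8 below. The median of all probe sets was -0.02. The 23 H/ACA box probe sets had a median of 0.14, ranging from -0.11 to 0.36, with 19 above 0 and 4 below. Without the arrays numbered 2 the medians were 0.22 for C/D box and 0.05 for H/ACA box RNAs. Fewer cells of a type and less RNA per cell cannot be told apart in such bulk RNA.

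In limma, 7 of the 33 C/D box probe sets were past an unadjusted p of 0.05 and 1.3-fold in the upward direction, and none in the downward direction. Among all 21789 probe sets with 1 symbol, 0.386% were past these limits upward and 1.01% downward. None of the 23 H/ACA box probe sets passed both limits. At an unadjusted p of 0.05 alone, 9 C/D box probe sets and 1 H/ACA box probe set were higher and 2 C/D box probe sets were lower, against 2.07% higher and 7.86% lower of all probe sets with 1 symbol. The lower ones were both of Snord118 and held identical values. No member reached an adjusted p of 0.05 in limma, where the smallest was 0.409, nor did any probe set with 1 symbol (0.0%). Without the arrays numbered 2, 12 C/D box probe sets and 1 H/ACA box probe set passed both limits upward, against 1.19% of all probe sets with 1 symbol. With the per-gene test of the methods, an analysis of variance, 5 of the 56 passed both limits upward, against 0.156%.

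All 3 VAChT KDHOM arrays lay above all 3 WT arrays for 10 of the 33 C/D box probe sets and 2 of the 23 H/ACA box probe sets, against 5.61% of all probe sets with 1 symbol. The reverse held for 3 C/D box probe sets and no H/ACA box probe set, against 14.3%. These include both probe sets of Snord118, which hold identical values. With 3 pools a group, the smallest two-sided p of an exact permutation test is 0.1.

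**Figure D1:**
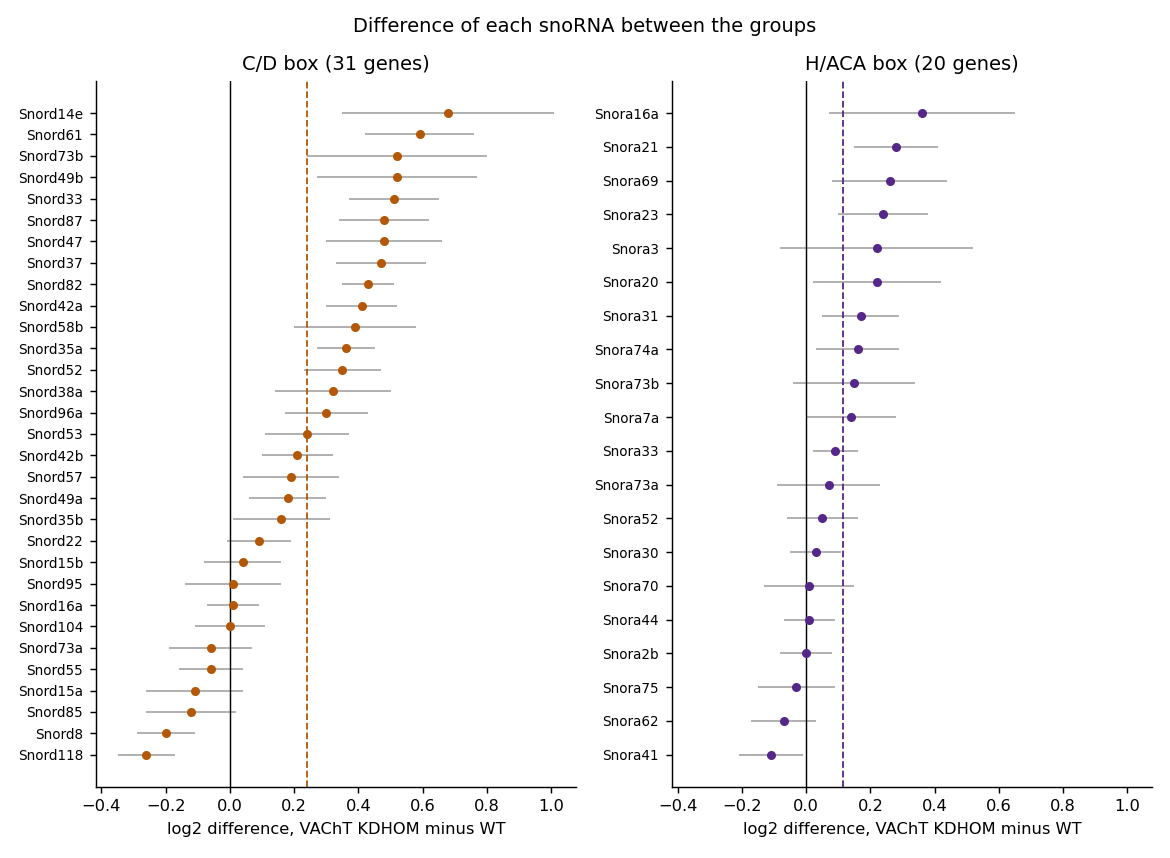
Log2 difference (VAChT KDHOM minus WT, n = 3 arrays each) of each snoRNA gene listed with a single symbol, brightest probe set per gene, with its standard error from limma. The left panel holds 31 C/D box RNAs and the right panel 20 H/ACA box RNAs, and the dashed lines mark the class medians of 0.24 and 0.12. The C/D box RNAs spread further to the right.

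Snord82, which lies in an intron of the nucleolin gene Ncl, had the smallest p of the members with 1 symbol. It read 10.08, 10.19 and 10.28 (log2 signal) on the VAChT KDHOM arrays, against 9.76, 9.78 and 9.71 on the WT arrays. As labelled, the arrays of each group lay close together and the groups were apart by more than their spread. The arrays numbered 2 each stood with their own label here, but those labels are in doubt. The separation of 3 against 3 arrays thus holds only as labelled. The log2 difference was 0.43 (SE 0.08, unadjusted p = 0.00107 and adjusted p = 0.409 in limma, n = 3 arrays each), and it was 0.44 without the arrays numbered 2.

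Snord33 and Snord35a are 2 of the 4 C/D box RNAs measured from introns of Rpl13a, a ribosomal protein gene. Snord33 read 6.93, 6.80 and 7.23 on the VAChT KDHOM arrays, against 6.27, 6.66 and 6.51 on the WT arrays, a log2 difference of 0.51 (SE 0.14, adjusted p = 0.409 in limma). Snord35a read 7.69, 7.77 and 7.89 on the VAChT KDHOM arrays, against 7.35, 7.43 and 7.49 on the WT arrays, a difference of 0.36 (SE 0.09), which falls short of 1.3-fold. The groups did not overlap for either RNA. The other 2 were probe sets listed with Snord34 and Rpl13a (0.38, SE 0.17) and with Snord32a and Rpl13a (0.37, SE 0.17), and in both the groups overlapped, with WT 2 above VAChT KDHOM 2. Without the arrays numbered 2 the 4 differences were 0.69 for Snord33, 0.37 for Snord35a, 0.65 for Snord34 and 0.58 for Snord32a.

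Snord47 is one of 8 snoRNA genes that RefSeq places inside Gas5, and the one among them with a probe set here. It read 7.25, 7.43 and 7.72 on the VAChT KDHOM arrays, against 6.64, 7.25 and 7.05 on the WT arrays. VAChT KDHOM 1 and WT 2 had nearly the same signal, so the groups only just failed to overlap. The difference was 0.48 (SE 0.18, unadjusted p = 0.0295 and adjusted p = 0.409 in limma) and 0.64 without the arrays numbered 2. It lost its unadjusted call when VAChT KDHOM 2, VAChT KDHOM 3 or WT 1 was left out, with differences of 0.50, 0.36 and 0.32.

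The other called C/D box RNAs came from different hosts. Snord61, from an intron of the RNA-binding protein gene Rbmx, read 4.99, 4.86 and 5.29 on the VAChT KDHOM arrays, against 4.19, 4.41 and 4.79 on the WT arrays, and had the largest difference of the called probe sets with 1 symbol, 0.59 (SE 0.17). Snord87, from the non-coding host Snhg6, read 5.99, 6.38 and 6.42 on the VAChT KDHOM arrays, against 5.59, 5.92 and 5.84 on the WT arrays (0.48, SE 0.14). In both, the highest WT array came within 0.1 of the lowest VAChT KDHOM array.
Snord37, from the elongation factor gene Eef2, read 5.53, 5.58 and 6.00 on the VAChT KDHOM arrays, against 5.11, 5.38 and 5.21 on the WT arrays (0.47, SE 0.14). Snord42a, from the ribosomal protein gene Rpl23a, read 6.29, 5.94 and 6.03 on the VAChT KDHOM arrays, against 5.57, 5.79 and 5.68 on the WT arrays (0.41, SE 0.11). VAChT KDHOM 3 stood highest for Snord37 and VAChT KDHOM 1 for Snord42a, so the same array did not lead in every RNA. Snord37 fell below 1.3-fold without VAChT KDHOM 3 (0.32), and Snord42a without VAChT KDHOM 1 (0.31) or WT 1 (0.35). Snord61 had an unadjusted p of 0.0542 in the per-gene test of the methods, an analysis of variance, in place of limma. Without the arrays numbered 2 the differences were 0.65 for Snord61, 0.49 for Snord87, 0.60 for Snord37 and 0.53 for Snord42a. Snord61, Snord87, Snord37 and Snord42a had mean signals below the 95th percentile of the 1035 olfactory receptor probe sets, which serve as a marker of dim signal in heart.

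**Figure D2:**
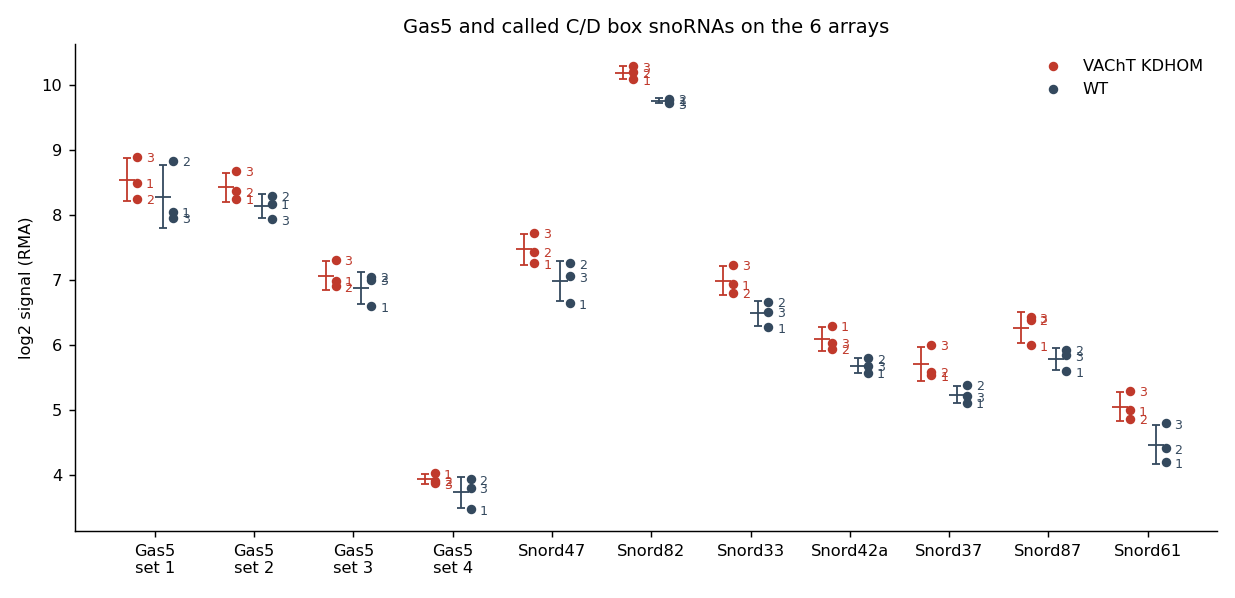
Log2 signal of the 4 Gas5 probe sets and the 7 called C/D box RNAs on each array, with VAChT KDHOM (red) left of WT (dark blue), array numbers beside the points, and bars for mean and SD (n = 3). Every called RNA had its VAChT KDHOM points above its WT points, whereas the Gas5 groups overlapped, with WT 2 at 8.83 in the brightest Gas5 probe set. Signals of different probe sets are not comparable with each other.

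At the low end, Snord118 (the U8 RNA, needed for processing of large-subunit ribosomal RNA and transcribed from its own promoter) had a difference of -0.26 (SE 0.09, unadjusted p = 0.0272 in limma). Its 2 probe sets carried identical values, 4.10, 4.24 and 4.13 on the VAChT KDHOM arrays and 4.53, 4.27 and 4.44 on the WT arrays, and count as 1 measurement. This signal was dim. Its unadjusted p in limma was 0.0659 to 0.0811 without VAChT KDHOM 1, VAChT KDHOM 3, WT 1 or WT 3, each left out alone, and 0.0691 after centring, where the difference was -0.19. Without both arrays numbered 2 the difference was -0.37. Snord8 read 7.80, 7.76 and 7.72 on the VAChT KDHOM arrays, against 8.10, 7.91 and 7.88 on the WT arrays, a difference of -0.20 (SE 0.09). Snord118 was the only member gene with 1 symbol that lay in no host gene.

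H/ACA box RNAs separated the groups less often by these counts, and the difference between the classes was not tested. Snora21, from the ribosomal protein gene Rpl23, had the smallest p of the H/ACA box probe sets with 1 symbol. One of its probe sets read 6.12, 6.11 and 6.19 on the VAChT KDHOM arrays, against 5.81, 5.84 and 6.07 on the WT arrays (0.23, SE 0.09, unadjusted p = 0.0421 in limma). In limma this p was 0.0744 to 0.123 when any array but WT 3 was left out, 0.0107 without WT 3 and 0.18 without both arrays numbered 2. The other read 6.39, 6.39 and 6.36 on the VAChT KDHOM arrays, against 5.88, 6.02 and 6.38 on the WT arrays (0.28, SE 0.13), and there WT 3 reached the VAChT KDHOM level. Snora23 (0.24, SE 0.14), Snora31 (0.17, SE 0.12), Snora69 (0.26, SE 0.18) and Snora33 (0.09, SE 0.07) followed by p. Snora73a and Snora73b, 205-base RNAs known as U17 that act in ribosomal RNA cleavage rather than pseudouridylation, differed by 0.07 and 0.15. Snora16a had the largest difference of the H/ACA box probe sets with 1 symbol, 0.36 (SE 0.29), and turned to -0.14 without the arrays numbered 2.

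The RNAs of the classes also differ in length, with a median of 68 bases for the 31 C/D box genes (45 to 148) and 125 bases for the 20 H/ACA box genes (61 to 205). Across the 31 C/D box genes, length and log2 difference had a Pearson r of -0.50 and a Spearman rho of -0.40, the shorter RNAs having the larger differences. Across the 20 H/ACA box genes r was 0.13 and rho 0.21. These values are across genes measured on the same 6 arrays, which are not independent, and the part of length was not tested.

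The difference was not evenly spread over the arrays. Averaged over the 31 C/D box genes, the deviation from each gene's own mean was 0.02, 0.05 and 0.27 on VAChT KDHOM 1, 2 and 3, against -0.22, -0.11 and -0.01 on WT 1, 2 and 3. VAChT KDHOM 3 was the highest of the 6 arrays for 18 of the 31 genes and WT 1 the lowest for 16. The 20 H/ACA box genes averaged -0.05, 0.05 and 0.17 on the VAChT KDHOM arrays, against -0.15, -0.11 and 0.09 on the WT arrays, so their groups overlapped. Relative to the H/ACA box genes, the C/D box genes stood at 0.07, 0.00 and 0.11 on the VAChT KDHOM arrays, against -0.07, 0.00 and -0.10 on the WT arrays. The red-cell marker Alas2, the one gene of its list measured, read 8.89, 9.83 and 10.03 on the VAChT KDHOM arrays, against 8.65, 9.18 and 9.31 on the WT arrays, and was likewise highest on VAChT KDHOM 3 and lowest on WT 1. The 4 atrial markers averaged 10.48, 10.49 and 10.98 on the VAChT KDHOM arrays, against 10.52, 10.24 and 10.45 on the WT arrays, highest on VAChT KDHOM 3 and lowest on WT 2, and none passed an unadjusted p of 0.05. The part of either in the snoRNA values was not tested.

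**Figure D3:**
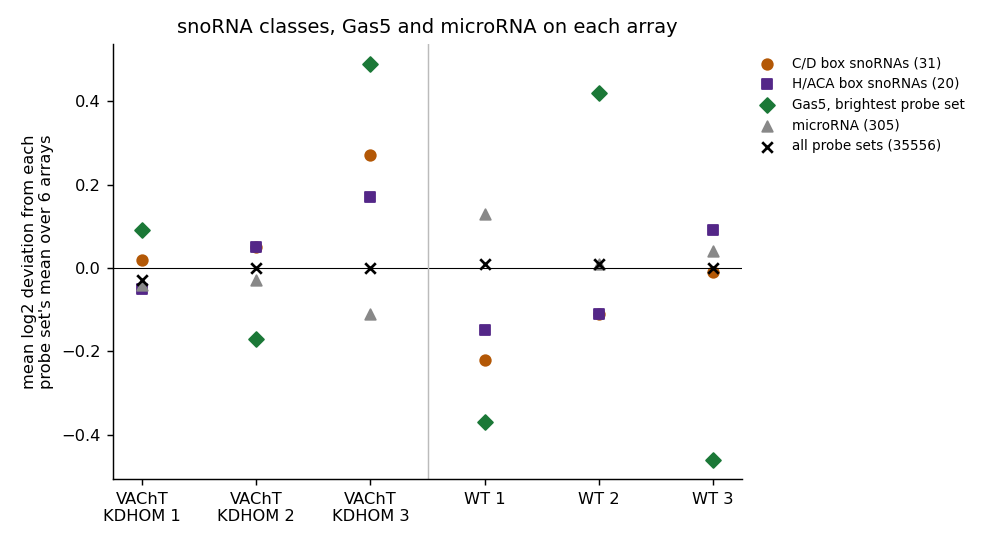
Mean log2 deviation of each class from its probe sets' own means over the 6 arrays, with the VAChT KDHOM arrays left of the WT arrays. C/D box RNAs ranged up to 0.27 on VAChT KDHOM 3 and down to -0.22 on WT 1, microRNA probe sets ran the other way on these arrays (-0.11 and 0.13), and Gas5 was high on WT 2 (0.42).

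Gas5 itself did not separate the labelled groups. Its brightest probe set read 8.49, 8.24 and 8.89 on the VAChT KDHOM arrays (8.54 ± 0.33, SD, n = 3), against 8.04, 8.83 and 7.95 on the WT arrays (8.27 ± 0.48, SD, n = 3). WT 2 lay among the VAChT KDHOM arrays and VAChT KDHOM 2 was the lowest of its group, the same arrays that went against their labels for Ogdhl. The difference was 0.27 (SE 0.26, unadjusted p = 0.329 and adjusted p = 0.656 in limma), and without the arrays numbered 2 it was 0.70 (unadjusted p = 0.00555, adjusted p = 0.453).
The other Gas5 probe sets differed by 0.29 (SE 0.14), 0.19 (SE 0.16) and 0.20 (SE 0.13), and by 0.41, 0.35 and 0.31 without the arrays numbered 2. Their groups overlapped as well. The 4 probe sets therefore had the same sign with all arrays and without those numbered 2. The brightest had a difference of 0.09 without VAChT KDHOM 3 and of 0.55 without WT 2 (unadjusted p = 0.0252 in limma), the one single-array omission that brought it past both limits.

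Snord47 and its host moved partly together over the arrays. The Pearson r between Snord47 and the brightest Gas5 probe set was 0.71 (exact permutation p = 0.114, n = 6 arrays) and the Spearman rho 0.71 (exact permutation p = 0.136), with adjusted p of 0.57 and 0.952 over the 25 pairs for which correlations were computed. Without the 2 arrays farthest from the median Gas5 signal r was 0.58. The labels give no batch within which the relation could be recomputed.

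**Figure D4:**
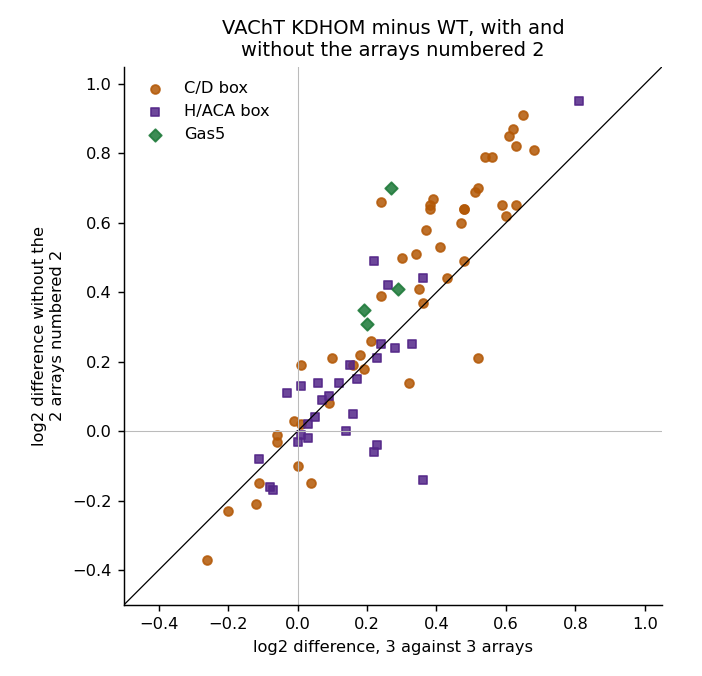
Log2 difference (VAChT KDHOM minus WT) of each distinct member profile with all 6 arrays (horizontal axis) and without the 2 arrays numbered 2 (vertical axis), with the diagonal as equality. Gas5 and many C/D box RNAs lie above the diagonal, the brightest Gas5 probe set at 0.27 and 0.70, and Snora16a lies far below it at 0.36 and -0.14.

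By their medians, C/D box RNAs had larger differences than the host genes that carry them, and H/ACA box RNAs did not. A host by position was found for 50 of the 51 member genes with 1 symbol, and for 27 of them (23 hosts) the host had a probe set of its own with 1 symbol. The median difference was 0.19 for these 27 snoRNAs and 0.06 for their hosts, whose differences ran from -0.12 to 0.27. For the 14 C/D box pairs the medians were 0.32 for the snoRNAs and 0.04 for the hosts, and for the 13 H/ACA box pairs 0.05 and 0.06. The snoRNA lay above its host in 19 of the 27 pairs, 11 of 14 for C/D box and 8 of 13 for H/ACA box RNAs. With all arrays, no host passed both limits upward, against 0.386% of all probe sets with 1 symbol. Of the 23 hosts, 1 (Rbmx, 0.23, SE 0.08) passed an unadjusted p of 0.05 upward, against 2.07%. Without the arrays numbered 2 the median of snoRNA minus host was 0.15, against 0.17 with all arrays. In that setting the host Gas5 passed both limits upward (0.70, unadjusted p = 0.00555 in limma) and no other host did. The share of all probe sets with 1 symbol was then 1.19%. Gas5 there lay above its snoRNA Snord47 (0.64). The medians by class are given only as labelled.

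Named pairs show the gap. Snord37 had a difference of 0.47 and Eef2, which encodes the factor that moves the ribosome along messenger RNA, had -0.12 (SE 0.10). Snord42a had 0.41 and Rpl23a 0.03 (SE 0.08), while Snord61 had 0.59 and Rbmx 0.23. Snord14e (9.62, 9.48 and 10.50 on the VAChT KDHOM arrays, against 8.75, 9.06 and 9.76 on the WT arrays) had the largest difference of the C/D box probe sets with 1 symbol, 0.68 (SE 0.33), and its host Hspa8, the constitutive Hsp70 chaperone, had 0.01 (SE 0.11). The difference for Snord14e was 0.36 without VAChT KDHOM 3, 0.46 without WT 1 and 0.96 without WT 3. Without both arrays numbered 2 it was 0.81.

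Over the 25 pairs whose host values did not fall into separate clusters, the correlation between snoRNA and host over the 6 arrays ran from -0.56 to 0.92, with a median of -0.07 and 12 above 0. Snora23 and its host Ipo7, an import receptor gene, had a Pearson r of 0.92 (exact permutation p = 0.0181, adjusted 0.226) and a Spearman rho of 0.60 (exact permutation p = 0.242), and r was 0.82 without the 2 farthest arrays. Snora33 and Rps12 had a Pearson r of 0.90 (exact permutation p = 0.0125, adjusted 0.226) and a Spearman rho of 0.89 (exact permutation p = 0.0333, adjusted 0.833), and r was 0.53 without the 2 farthest arrays. None of the 25 passed the adjustment.

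snoRNAs cut from the same host did not always differ alike. For 11 hosts with at least 2 measured snoRNA probe sets of distinct values (25 in all, those with several symbols included), the gap between the highest and lowest difference within a host had a median of 0.29 and ran from 0.07 to 0.81. It was over 0.3 in 5 hosts. In Ncl, Snord82 had 0.43 and Snora75, the H/ACA box RNA of the same gene, -0.03 (SE 0.12), beside 0.12 (SE 0.07) for Ncl. In Rps3a1, Snord73b had 0.52 (SE 0.28) and Snord73a -0.06 (SE 0.13). In contrast, the 4 RNAs of Rpl13a lay between 0.36 and 0.51, and those of Hspa8 between 0.60 and 0.68. These gaps within hosts were not tested, and several standard errors are as large as the gaps.
By kind of host, the medians were 0.16 over 21 snoRNAs from ribosomal protein genes, 0.20 over 16 from other protein-coding genes and 0.16 over 13 from non-coding genes. The 3 kinds of host thus had medians within 0.04 of each other.

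**Figure D5:**
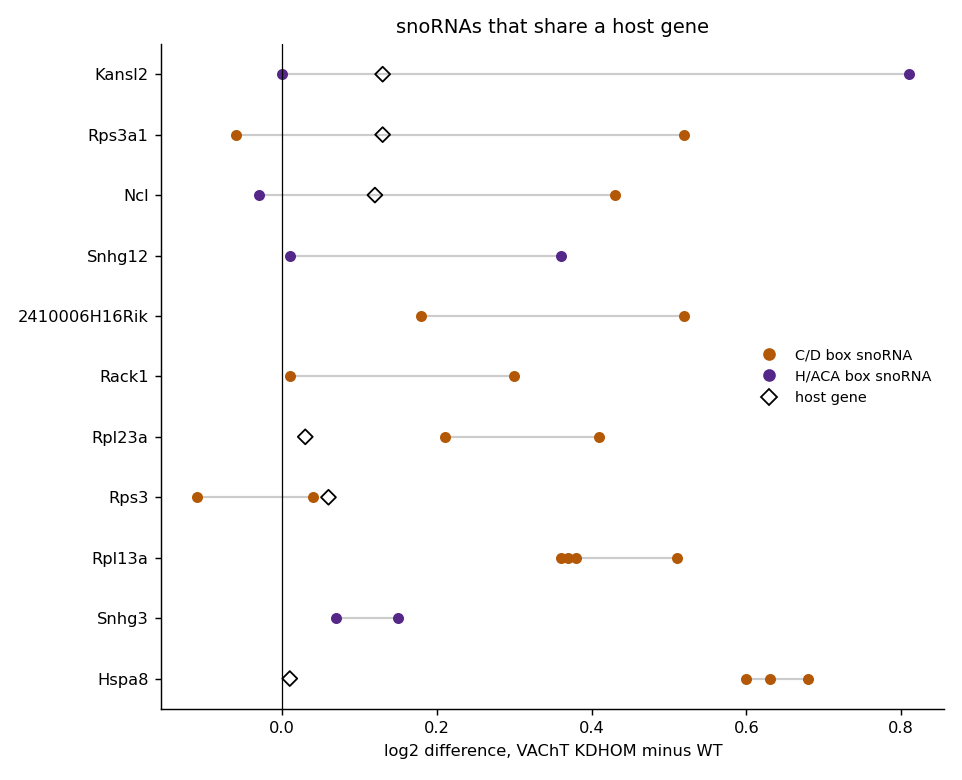
Log2 difference (VAChT KDHOM minus WT) of snoRNAs that share a host gene, 1 row per host, ordered by the gap between them, with an open diamond for the host where it had a probe set with 1 symbol. Kansl2 has the widest gap (0.81), Hspa8 the narrowest (0.07) with its host at 0.01.

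Probe sets listed with several symbols held the largest single difference of the members. The probe set listed with Mir1291 and Snora34 read 6.39, 6.32 and 6.63 on the VAChT KDHOM arrays, against 5.42, 5.79 and 5.71 on the WT arrays. Every VAChT KDHOM array was above every WT array by over 0.5. The log2 difference was 0.81 (SE 0.13, unadjusted p = 0.000321 and adjusted p = 0.409 in limma), it ran from 0.70 to 0.89 when arrays were left out one at a time, and it was 0.95 without those numbered 2. Which of the overlapping RNAs printed above gave the signal cannot be told apart. Snora2b, the other snoRNA in the same host Kansl2, read 5.33, 5.54 and 5.49 on the VAChT KDHOM arrays, against 5.44, 5.49 and 5.43 on the WT arrays, with overlapping groups, and Kansl2 itself had 0.13 (SE 0.10). The probe set listed with Mir664 and Snora36b differed by 0.12 (SE 0.08), and that listed with Snora24 and Snhg8 by 0.33 (SE 0.09).

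The Snord116 family, C/D box RNAs of the mouse counterpart of the human Prader-Willi region that are known from neurons and have no known ribosomal RNA target, accounted for 24 of the 41 probe sets with several symbols. All 24 were listed with the same symbols, 18 of them held identical values, and there were 7 distinct profiles. The 18 read 5.88, 5.72 and 6.73 on the VAChT KDHOM arrays, against 5.34, 5.60 and 5.44 on the WT arrays. VAChT KDHOM 3 stood well above the other arrays and the rest lay close together, and the mean signal was dim by the measure given above. The difference was 0.65 (SE 0.25, unadjusted p = 0.0337 in limma) and 0.34, under 1.3-fold, without VAChT KDHOM 3. The unadjusted call was also lost without WT 1 (0.59) and without WT 3 (0.63). Without both arrays numbered 2 the difference was 0.91. Over the 7 profiles the difference with all arrays ran from 0.48 to 0.65. The 22 of these probe sets past both limits are thus no more than a few measurements of similar sequences, and 2.12% of all probe sets were past them upward.
The probe sets listed with Snord14d, Snord14c and Hspa8 (U14 RNAs, needed for cleavage of the small-subunit ribosomal RNA precursor) had 0.63 and 0.60 (SE 0.26 each), with WT 3 above VAChT KDHOM 1 and 2. Snord68 with Rpl13 had 0.34 (SE 0.14) and Snora28 with Eif5 0.36 (SE 0.15). Snord1c with Snord1b had 0.24 (SE 0.25), from 4.37, 4.03 and 4.79 on the VAChT KDHOM arrays against 3.78, 4.61 and 4.06 on the WT arrays, and like Gas5 it had its highest WT value on WT 2. Without the arrays numbered 2 it was 0.66. The probe set that the study lists as Snora26 is annotated here with its host Dancr alone, so it is not among the members. It read 7.34, 7.08 and 7.52 on the VAChT KDHOM arrays, against 6.76, 7.26 and 7.10 on the WT arrays (0.27, SE 0.16), and the difference was 0.50 without the arrays numbered 2.

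Of 18 genes for the proteins that bind and build snoRNA particles, 2 passed an unadjusted p of 0.05 upward and none downward. Among all probe sets with 1 symbol the shares were 2.07% and 7.86%. None of the 18 also passed 1.3-fold, against 0.386% upward and 1.01% downward, and their median difference was 0.08. Without the arrays numbered 2 the median was 0.17, and none passed both limits. Nufip1, an assembly factor, read 8.99, 8.90 and 9.02 on the VAChT KDHOM arrays, against 8.54, 8.81 and 8.74 on the WT arrays (0.28, SE 0.10). Naf1, an assembly factor of H/ACA box particles, read 7.03, 7.09 and 7.18 on the VAChT KDHOM arrays, against 6.89, 6.92 and 6.85 on the WT arrays (0.21, SE 0.08). The methyltransferase Fbl had 0.03 (SE 0.13) and the pseudouridine synthase Dkc1 0.12 (SE 0.14; 0.36, unadjusted p = 0.0231 in limma, without the arrays numbered 2), while the C/D core protein Nop58 had 0.30 (SE 0.19).

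Most microRNA and small Cajal body RNA probe sets had differences of the opposite sign. The 305 probe sets with 1 symbol starting with Mir had a median difference of -0.13, with 231 below 0 and 74 above. Of these, 1 was past both limits upward and 12 downward, beside 0.386% upward and 1.01% downward of all probe sets with 1 symbol. The list takes in some host genes, such as Mir17hg and Mir99ahg. The mean signal of 210 of the 305 was below the olfactory receptors' 95th percentile. Small Cajal body RNAs, which are built like snoRNAs but guide the modification of spliceosomal RNAs, had 4 probe sets, all below 0, with a median of -0.15. The 2 probe sets of Scarna17 held identical values, so there were 3 distinct profiles and the median counts Scarna17 2 times. Scarna13 (-0.01, SE 0.12) and Scarna8 (-0.04, SE 0.11) were near 0. Scarna17 read 11.09, 11.06 and 11.14 on the VAChT KDHOM arrays, against 11.50, 11.34 and 11.23 on the WT arrays (-0.26, SE 0.09). After centring the medians were -0.07 for microRNAs and -0.08 for small Cajal body RNAs, the latter again with the repeated Scarna17 values. The difference between these classes and the snoRNAs was not tested.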

How the data were processed

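The authors scanned Affymetrix Mouse Gene 1.0 ST arrays and summarised them to gene level with RMA in Partek, and the deposited table thus holds log2 signal, with the 6 arrays normalized together. The genome build is not given in the sources used here. Values were used as deposited, with no filter. Names come from the platform annotation, where 21789 of 35556 carry 1 symbol, 1621 several and 12146 are unlisted.

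The whole table was fitted in limma 3.58.1 (R 4.3.3) with lmFit and eBayes for VAChT KDHOM minus WT, and p-values were adjusted after Benjamini and Hochberg over every probe set. Calls used an adjusted p of 0.05, or an unadjusted p of 0.05 with 1.3-fold, the limits of the methods, whose ANOVA was an alternative. The fit was tested on simulated data. Class medians are descriptions. A host is the shortest gene, other than a snoRNA or microRNA, whose RefSeq span holds the snoRNA; strand was not in that table and was not used. For snoRNAs that share a host, 1 host is not reported here. A gene with several probe sets is represented by the brightest. Correlations used exact permutation over the 6 arrays. The precision rests on 3 pools a group.

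Members and lists were chosen with earlier results of these data known. Named are Gas5 and the snoRNAs inside it; snoRNAs the study lists; called members; the 6 with the smallest p per class; the 3 lowest; Snord116 as a range; hosts of the named snoRNAs; and the snoRNA particle genes with the 4 smallest p. Other examples (same-host pairs, Snord14e, Snora16a, Snora73a and Snora73b, probe sets with several symbols, Fbl, Dkc1 and Scarna17) were picked after their values were seen. Alternatives were other scalings, a filter on dim probe sets, eBayes settings, weighting of arrays, a block for the replicate number, arrays left out, and other member sets; taking 1 probe set per gene was added after seeing the data.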

Additional observations from a re-analysis of the deposited data

How the results depend on the processing

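Against 7 called snoRNA probe sets with 1 symbol, 3 were called when dim probe sets were left out (fewer probe sets tested), 4 with array weights, 13 without both arrays numbered 2, 32 when probe sets with several symbols were added, and 12 with no fold limit. With 1 array left out in turn the count ran from 5 to 15: 5 without VAChT KDHOM 3, 5 without WT 1, 9 without WT 2, 11 without VAChT KDHOM 1, 13 without VAChT KDHOM 2 and 15 without WT 3. It was 5 with the ANOVA of the methods, 7 after quantile normalization and 10 after centring, which moved the median of all probe sets with 1 symbol to 0.04. Of all probe sets with 1 symbol, 0.386% were called upward, against 1.19% without both arrays numbered 2 and 0.156% with the ANOVA. With no fold limit 2.07% were higher and 7.86% lower. Shares for the other settings are not given here, so those counts cannot be set against all probe sets. Leaving out single arrays gave 0.09 to 0.55 for Gas5, 0.19 to 0.30 for the C/D box median, 0.03 to 0.19 for the H/ACA box median and 0.08 to 0.22 for the median of snoRNA minus host. With array weights Gas5 was 0.07, the C/D box median 0.16 and the H/ACA box median 0.06. Without both arrays numbered 2 the H/ACA box median was 0.05. With several symbols added the C/D box median was 0.48. That setting adds the 24 Snord116 probe sets, all dim and with 7 distinct profiles, and 22 of the 32 probe sets called there were among them. The causes of these shifts were not tested. The lowest adjusted p in limma of the 17 named probe sets over these settings was 0.367. Same-numbered arrays share only a number: their deviations correlated at 0.057, -0.125 and 0.133. With the replicate block the count was 9, the Gas5 difference 0.27 and the medians 0.24 for C/D box and 0.14 for H/ACA box RNAs. For 21 of the 56 snoRNA probe sets with 1 symbol the mean signal was below the olfactory receptors' 95th percentile, which limits what these arrays can show for them.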

Other observations

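Other short non-coding RNAs, chosen by name, gave values outside the comparisons above. Rny1, a Y RNA that binds the Ro protein, read 7.91 to 8.53 (log2) on the VAChT KDHOM arrays, against 6.53 to 7.47 on the WT arrays, with no overlap, a difference of 1.12 (SE 0.25, adjusted p = 0.409 in limma). Vaultrc5, an RNA of the vault particle, had 0.55 (SE 0.21) and Rny3 0.20 (SE 0.21). Rnu3a, the U3 RNA, is a C/D box RNA by structure that the symbol rule does not take in, and it had -0.07 (SE 0.09). Rnu5g, a spliceosomal RNA, had 0.34 (SE 0.12) and Rnu6 -0.27 (SE 0.10). Among non-coding host genes of the Snhg family, Snhg16, which hosts Snord1b and Snord1c, read 6.93, 6.91 and 7.09 on the VAChT KDHOM arrays, against 6.51, 6.72 and 6.75 on the WT arrays (0.32, SE 0.10), and the median of the 8 Snhg probe sets was -0.09. One of the 2 Rn7sk probe sets read 13.48 on VAChT KDHOM 1, against 14.51 and 14.52 on the other VAChT KDHOM arrays and 14.45 to 14.47 on the WT arrays, as the cardiomyocyte markers did on that array.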
